A study of Homo sapiens with 3 samples.

Results

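The results concern 9 genes that are classic targets of p53, measured in MDA-MB-231 cells with 3 forms of the corepressor KAP1. They are MDM2, CDKN1A, GADD45A, BTG2, BBC3, BAX, TP53I3, ZMAT3 and SESN1, chosen by symbol from a fixed list, and all 9 had a row among the 19049 gene entries used. MDA-MB-231, an established basal-like breast cancer line, carries a mutant p53. In every group the cells' own KAP1 was depleted with a short hairpin RNA and KAP1 was re-expressed as S473D, S473A or the wild-type form (wt), with 1 library per form. In S473D a serine of KAP1 is replaced by aspartate, whose charge imitates a phosphorylated serine, in S473A alanine takes its place and leaves no site for a phosphate, and wt keeps it. The cells were grown in serum-containing medium and the labels name no damaging agent. Whether the cultures were otherwise stressed is not given.

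p53 is a transcription factor that is kept scarce in unstressed cells, mainly by MDM2, a ubiquitin ligase that is itself encoded by a p53 target gene and so closes a feedback loop. After DNA damage p53 binds response elements near its targets, whose products halt the cell cycle, start cell death or adjust metabolism and repair. KAP1 is known to bind MDM2 and to help it restrain p53. The line's p53 is mutant, and several of these genes, CDKN1A and GADD45A among them, also answer to other signals.

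The deposited values were logarithms of RPKM, a unit that divides reads by gene length and library depth, so levels can be set side by side between genes. Depth was estimated from the steps between low values at 23900000 reads for S473D, 29400000 for S473A and 25700000 for wt. With 1 library per form replicate error cannot be estimated, no p-value is given, and a difference compares 2 libraries rather than 2 conditions. In these bulk libraries, fewer cells with a transcript and less of it per cell cannot be told apart. TRIM28, which encodes KAP1, stood at 25.6 RPKM in S473D, 32.3 in S473A and 28.7 in wt, and its own and re-expressed transcripts cannot be separated. Of the line's markers, 8 genes it is known to express, such as VIM and CD44, stood between 27.3 and 673 RPKM in S473D, 12.6 and 740 in S473A, and 12.5 and 738 in wt. The highest of 9 luminal, epithelial, receptor or leukocyte genes it lacks, such as ESR1 and CDH1, reached 1.49 RPKM in S473D, 1.96 in S473A and 1.72 in wt. The S473D library had more of its summed RPKM in ribosomal protein genes, 18.8% against 13.0% in S473A and 12.9% in wt, and its differences from wt ran with transcript length over 11300 genes (Spearman's rho -0.44 across genes, against -0.01 for S473A minus wt).

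The sequence upstream of a gene's start can be searched for letters that resemble a p53 response element. Such a match does not show that p53 binds there, and binding was not measured. The 250 bases before each start that RefSeq lists (GRCh38.p14) were available for 8 of the 9 genes, all but GADD45A. They were searched for the p53 response element consensus, a pair of adjacent half-sites over 20 bases with no gap, allowing 3 mismatches. The consensus reads the same on both strands, so a single search covers both. Of 35116 windows of this length over all genes, 1532 (4.36%) held a match. Among the 8 genes, MDM2 and SESN1 had such a window. Both have several listed starts, and the share is of windows rather than genes, so the gene count cannot be set directly against it. The 2 matching windows are shown with the matched bases in capitals, and the windows of TP53I3 and BTG2 are shown because these genes stood farthest above and below wt in S473D.
MDM2, inner promoter, chr12:68808767-68809016, plus strand: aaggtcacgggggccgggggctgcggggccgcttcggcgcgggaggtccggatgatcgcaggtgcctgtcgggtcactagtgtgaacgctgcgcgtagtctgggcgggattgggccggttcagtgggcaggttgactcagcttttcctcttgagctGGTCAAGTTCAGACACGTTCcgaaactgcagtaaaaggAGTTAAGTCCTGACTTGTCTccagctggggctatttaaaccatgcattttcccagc
SESN1, promoter of its innermost listed start, chr6:109008989-109009238, minus strand: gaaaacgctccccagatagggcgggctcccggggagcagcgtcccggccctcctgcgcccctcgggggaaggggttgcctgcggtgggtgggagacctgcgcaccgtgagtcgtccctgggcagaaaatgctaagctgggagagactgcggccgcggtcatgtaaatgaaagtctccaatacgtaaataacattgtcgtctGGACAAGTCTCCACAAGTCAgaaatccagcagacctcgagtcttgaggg
TP53I3, chr2:24084835-24085084, minus strand: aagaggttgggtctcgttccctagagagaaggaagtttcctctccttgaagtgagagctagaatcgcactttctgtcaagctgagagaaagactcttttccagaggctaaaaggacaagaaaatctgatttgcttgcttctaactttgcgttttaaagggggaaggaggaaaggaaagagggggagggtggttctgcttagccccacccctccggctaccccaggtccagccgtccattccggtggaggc
BTG2, chr1:203305269-203305518, plus strand: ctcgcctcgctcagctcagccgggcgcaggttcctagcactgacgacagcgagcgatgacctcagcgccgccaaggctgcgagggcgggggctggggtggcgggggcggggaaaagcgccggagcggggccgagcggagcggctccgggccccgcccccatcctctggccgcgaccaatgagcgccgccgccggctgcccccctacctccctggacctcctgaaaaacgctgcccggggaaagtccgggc
The MDM2 window held 2 matches. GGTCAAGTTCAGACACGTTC has 2 mismatches to the consensus and lies 94 to 75 bases before the start, and AGTTAAGTCCTGACTTGTCT has 3 and lies 56 to 37 bases before it. Allowing only 2 mismatches, 0.561% of all windows held a match. A second inner start lies a few bases downstream and its window holds the same matches, while the windows of the outer promoter had at least 5 mismatches. The SESN1 match GGACAAGTCTCCACAAGTCA has 3 mismatches and lies 49 to 30 bases before the innermost start. Several targets carry their known elements farther away, those of CDKN1A upstream of this window and that of GADD45A in an intron, so the absence of a match says only that the letters are not in these 250 bases. The upstream windows also differed in composition. CDKN1A (76.4% G and C), BTG2 (74.8%) and the outer ZMAT3 start (75.2%) had CpG-rich sequence with 27, 30 and 31 CpG pairs, while TP53I3 (51.2%) had 6 and BBC3 (49.2%) had 4, against medians of 58% and 11 over all windows.

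The 9 genes covered a wide range of levels, and their order was much the same in the 3 libraries. BAX was highest in each, followed by GADD45A and CDKN1A, then MDM2 and TP53I3, then ZMAT3, SESN1 and BBC3, with BTG2 last. The range ran between 42.8 and 0.123 RPKM in S473D, 61.4 and 0.575 in S473A, and 55.3 and 0.615 in wt. Neighbours in that order whose counting intervals overlapped were ZMAT3 and SESN1 in S473D, GADD45A and CDKN1A in S473A, and MDM2 with TP53I3 and SESN1 with BBC3 in wt. One pair changed places: TP53I3 (14.1 RPKM) was above MDM2 (10.7) in S473D, but below it in S473A (9.07 against 11.4) and in wt (10.7 against 11.99).

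**Figure D1:**
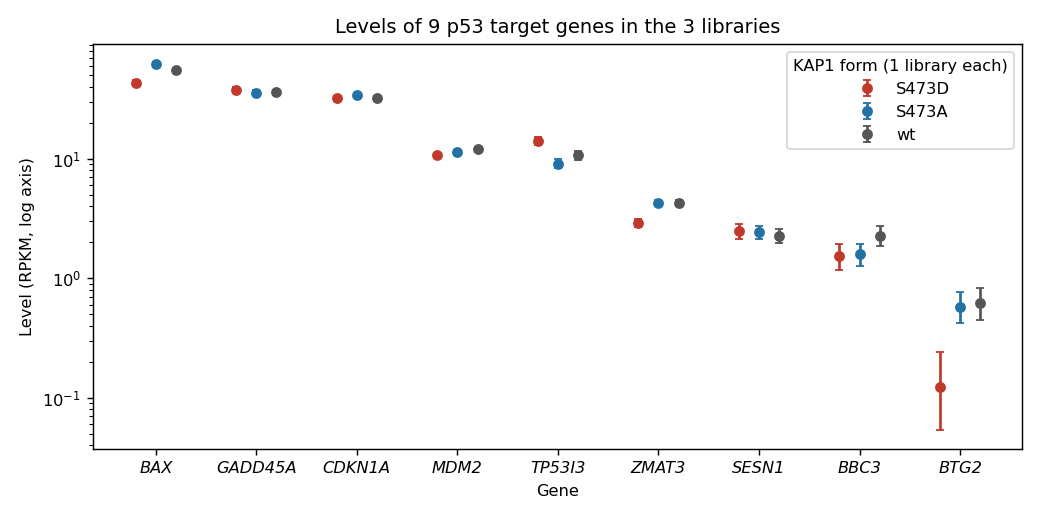
Level of each gene in RPKM on a log axis, 1 point per library (S473D red, S473A blue, wt grey), with 95% counting intervals from estimated reads. The points of most genes lie close together, while BTG2 drops to 0.123 RPKM in S473D and TP53I3 stands highest there.

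None of the 8 members that could be tested was 1.5-fold apart between the forms on the main scale. Differences were taken on log2(RPKM + 1), which shrinks those of genes with low levels. By the RPKM ratio, TP53I3 was 1.55-fold higher in S473D than in S473A. By the same measure BBC3 and ZMAT3 were 1.49-fold and 1.47-fold lower in S473D than in wt. Tested genes, 11571 in all, are those whose mean over the libraries reached 1 RPKM, which left 8 of the 9 members and put BTG2 below the filter. Between S473D and wt, 0 of the 8 were at least 2-fold apart and 0 at least 1.5-fold, where 1.09% and 10.1% of all tested genes were. Between S473A and wt, 0 of 8 passed either size, against 0.0173% and 0.242% of tested genes. Between S473D and S473A, 0 of 8 passed either size, against 1.13% and 9.86%, with TP53I3 just under 1.5-fold on that scale. That last count was 1 under 5 of 7 alternatives: TP53I3 passed with a pseudocount of 0.1 or 0.5, with centring and with scaling, and BAX passed with length and GC trends removed. Under those settings, in that order, 14.9%, 12.1%, 10.9%, 11.1% and 5.11% of all genes passed. With only 8 genes, counts of 0 or 1 are close to these background shares. The 3 comparisons share libraries with each other and are not separate evidence.

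The members did not move as a block in either mutant. In S473D minus wt, 3 of the 8 were above 0 and 5 below, with a median of -0.08 beside -0.10 for all tested genes, of which 39.3% were above 0 and 60.7% below. In S473A minus wt the split was also 3 and 5, where 49.8% of tested genes were above 0 and 50.2% below, and the median was -0.01, beside 0.00 for all. Ratios of RPKM carry exact 95% intervals from estimated reads, which cover counting error only. In S473D over wt the whole interval lay above 1 for 1 of the 8, as for 26.9% of the 11300 genes with a transcript length, and below 1 for 4, as for 45.2%. In S473A over wt it lay above 1 for 1 of the 8, against 7.54% of genes, and below 1 for 3, against 7.78%. In S473D over S473A it lay above 1 for 1 of the 8, against 27.5%, and below 1 for 4, against 45.8%.

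**Figure D2:**
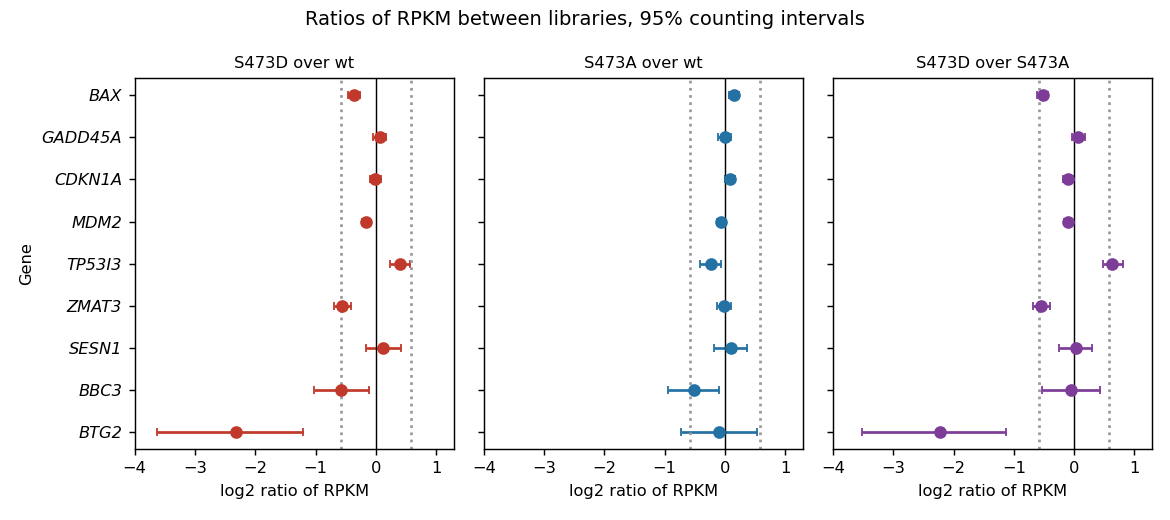
Ratio of RPKM for each gene on a log2 axis in the 3 comparisons, with 95% counting intervals; dotted lines mark 1.5-fold. TP53I3 lies right of 0 in S473D over wt and left of it in S473A over wt, BAX the reverse, and the interval of BTG2 lies wholly left of the 1.5-fold line in both comparisons of S473D.

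MDM2, the ubiquitin ligase that limits p53, differed little. It stood at 10.7 RPKM in S473D, 11.4 in S473A and 11.99 in wt, about the middle of all tested genes, with 54.2%, 53.9% and 55.5% of them below it. Its ratio to wt was 0.892 in S473D (counting interval 0.851 to 0.935, log2 difference -0.15) and 0.954 in S473A (0.914 to 0.997, -0.06). The S473D value was close to the shift shared by all genes, and it was -0.05 once differences were centred on their median. Its paralog MDM4, which also binds p53, stood at 2.60 RPKM in S473D, 3.44 in S473A and 3.52 in wt.

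The arrest genes CDKN1A and GADD45A differed from wt by less than counting error. CDKN1A encodes p21, an inhibitor of cyclin-dependent kinases, and stood at 32.0 RPKM in S473D, 34.1 in S473A and 32.2 in wt. Its ratio to wt was 0.993 in S473D (interval 0.929 to 1.06) and 1.06 in S473A (0.995 to 1.13), so both intervals held 1. GADD45A, whose product binds the replication clamp and stress kinases, stood at 37.6 RPKM in S473D, 35.7 in S473A and 35.9 in wt. Its ratios were 1.05 (0.970 to 1.13) in S473D and 0.996 (0.925 to 1.07) in S473A. GADD45A is a short transcript of 1496 bases, and with trends on length and GC content removed its S473D difference was -0.17 in place of 0.06.

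BTG2, an antiproliferative gene that recruits the deadenylase complex, was nearly silent in all 3 libraries and lowest in S473D. Its level was 0.123 RPKM in S473D, about 8 estimated reads, against 0.575 in S473A (46 reads) and 0.615 in wt (43 reads). The ratio of S473D to wt was 0.1999 with a wide counting interval of 0.0812 to 0.430, and that of S473D to S473A was 0.214 (0.0871 to 0.457). S473A and wt did not differ beyond counting error (0.936, interval 0.604 to 1.45). On the log2(RPKM + 1) scale the S473D difference was only -0.52, because the gene is so low that the added 1 outweighs it. On that scale 5.48% of tested genes lay lower in S473D minus wt, but tested genes leave out those as low as BTG2. How often such low genes differ as far in RPKM ratio was not examined. Of the genes in the list BTG2 had the ratio farthest from 1, and it rests on the fewest reads.

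Of the death genes, BAX and TP53I3 stood on opposite sides of wt in the 2 mutants. BAX, which permeabilizes the mitochondrial outer membrane, stood at 42.8 RPKM in S473D, 61.4 in S473A and 55.3 in wt. Its ratio to wt was 0.775 in S473D (interval 0.722 to 0.830, log2 difference -0.36) and 1.11 in S473A (1.05 to 1.18, 0.15), and S473D over S473A was 0.697 (0.652 to 0.745, -0.51). Of all tested genes, 6.33% lay lower than BAX in S473D minus S473A and 95.1% lay lower in S473A minus wt. BAX is short (1358 bases), a class of genes that stood mostly above wt in S473D, and with the length and GC trends removed its S473D difference from wt was -0.58.

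TP53I3 encodes a quinone oxidoreductase-like enzyme that p53 induces and that is tied to reactive oxygen species. It stood at 14.1 RPKM in S473D, 9.07 in S473A and 10.7 in wt. The ratio to wt was 1.32 in S473D (interval 1.18 to 1.48, log2 difference 0.37) and 0.848 in S473A (0.751 to 0.957, -0.22). Between the mutants it was 1.55-fold higher in S473D (1.39 to 1.75), a log2 difference of 0.58, and 93.1% of tested genes lay lower. Within S473A minus wt only 2.25% of tested genes lay lower than TP53I3, since nearly all genes there were close to 0. With the trends removed the S473D difference from wt was 0.32.

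BBC3, which encodes the BH3-only protein PUMA, was lower in both mutants than in wt. It stood at 1.52 RPKM in S473D (67 estimated reads), 1.58 in S473A (85 reads) and 2.26 in wt (107 reads). The ratio to wt was 0.673 in S473D (interval 0.488 to 0.921) and 0.700 in S473A (0.517 to 0.933), while S473D over S473A was 0.962 (0.692 to 1.35). The 2 mutants differed from each other by less than counting error, and both differences rest on the single wt library. The S473A difference of -0.34 was far out among genes of that comparison, with 0.570% of tested genes lower, and the S473D difference of -0.37 was less so, with 17.4% lower.

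ZMAT3, a zinc finger protein that binds RNA and is directly induced by p53, was lower in S473D than in the other libraries. It stood at 2.91 RPKM in S473D (654 estimated reads), 4.23 in S473A and 4.27 in wt. The ratio of S473D to wt was 0.680 (interval 0.616 to 0.751, log2 difference -0.43) and to S473A 0.687 (0.623 to 0.757, -0.42). S473A over wt was 0.990 (0.910 to 1.08). Its transcript is long, at 9406 bases, and with trends on length and GC content removed the S473D difference was -0.38.

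SESN1, a sestrin that restrains mTORC1 under stress, showed no difference beyond counting error. It stood at 2.46 RPKM in S473D, 2.41 in S473A and 2.26 in wt, with ratios to wt of 1.09 (interval 0.894 to 1.33) and 1.07 (0.884 to 1.29). SESN2, its paralog, stood at 3.23 RPKM in S473D, 3.77 in S473A and 4.56 in wt. The 2 genes with a response element match in their upstream windows, MDM2 and SESN1, thus had log2 differences from wt of -0.15 and 0.09 in S473D.

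**Figure D3:**
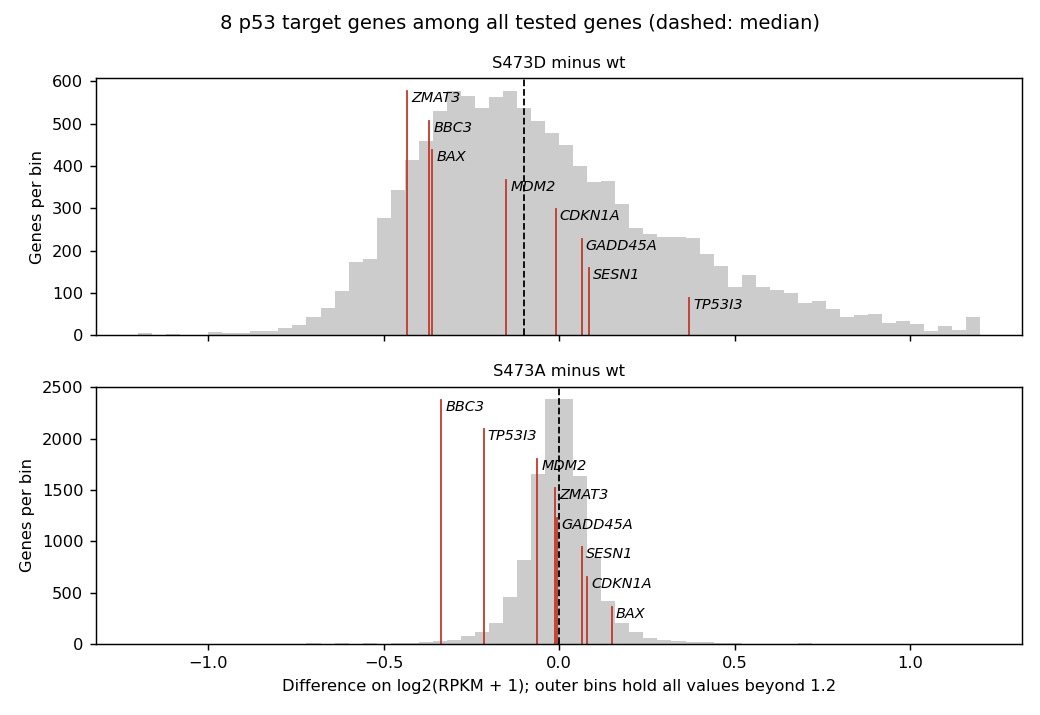
Histograms of the difference on log2(RPKM + 1) over 11571 tested genes, S473D minus wt above and S473A minus wt below, with the 8 tested p53 targets as red lines and the median of all genes dashed. In S473D the members spread over the broad bulk of genes between ZMAT3 (-0.43) and TP53I3 (0.37), while in S473A, where most genes sit near 0, BBC3 (-0.34) and TP53I3 (-0.22) lie in the lower tail.

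Genes with the most similar pattern over the 3 libraries were sought for 2 members. For TP53I3, the tested member highest in S473D minus wt, the closest of 8123 genes averaging 5 RPKM or more were LINC00960, OVCA2 and SQRDL, at distances of 0.021, 0.032 and 0.033 between centred log2(RPKM + 1) values. SQRDL stood at 10.7 RPKM in S473D, 6.78 in S473A and 8.29 in wt. For ZMAT3, the lowest, they were KIAA0947, ARFRP1 and IPO8, at 0.0020, 0.0038 and 0.0040. With only 3 libraries to compare, 1448 genes were within 0.1 of ZMAT3 and 91 within 0.1 of TP53I3.

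Beyond the 9 genes, 63 further p53 targets were followed, of which 50 were tested. In S473D minus wt 7 of the 50 were at least 1.5-fold higher, where 6.83% of all tested genes were, and 1 was at least 1.5-fold lower, against 3.23%. With differences centred on their median, 9 of the 50 were 1.5-fold apart, all of them higher, where 9.55% of all genes were higher and 1.11% lower by that size. With length and GC trends removed, 2 of the 50 were 1.5-fold apart, BID (0.78) and RPS27L (1.01), against 5.07% of genes. RPS27L was assigned a transcript of 6434 bases, which makes it a longer gene here, and its value with trends removed depends on that length. Their median was -0.02, beside -0.10 for all tested genes. In S473A minus wt 0 of the 50 were 1.5-fold apart, against 0.242% of tested genes, and the median was -0.02. At 2-fold, 0 of the 50 passed in each comparison, against 1.09% of genes in S473D minus wt, 0.0173% in S473A minus wt and 1.13% in S473D minus S473A.

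Among 10 tested arrest targets, PCNA, the replication clamp gene, was the 1 gene past 1.5-fold in S473D minus wt (224 RPKM in S473D, 117 in S473A, 115 in wt; log2 difference 0.95). GTSE1, a mitotic gene that restrains p53, was the lowest (20.1 RPKM in S473D, 28.999 in S473A, 27.6 in wt; -0.44). Among 15 tested death targets, the BH3 gene BID (16.6 RPKM in S473D, 10.1 in S473A, 8.97 in wt; 0.82), SIVA1 (0.72) and PMAIP1, which encodes NOXA (23.9, 13.7 and 14.5 RPKM; 0.68), were at least 1.5-fold higher in S473D than in wt. The death receptor gene TNFRSF10B was the lowest (43.6 RPKM in S473D, 56.3 in S473A, 57.5 in wt; -0.39). Of all tested genes, 6.83% were at least 1.5-fold higher in S473D than in wt. With length and GC trends removed, PCNA was at 0.53, BID at 0.78, SIVA1 at 0.28 and PMAIP1 at 0.24. The death targets stood on both sides of wt in S473D, with BID and PMAIP1 above wt and BAX and BBC3 below it.

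Among 25 tested targets of repair and metabolism, RPS27L (0.93), the apoptosis inhibitor gene TRIAP1 (0.64) and the damage recognition gene DDB2 (0.60) were at least 1.5-fold higher in S473D than in wt. With length and GC trends removed, RPS27L was at 1.01, TRIAP1 at 0.11 and DDB2 at 0.49. Of all tested genes, 6.83% were higher and 3.23% lower by at least 1.5-fold. XPC, the other damage recognition gene of nucleotide excision repair, was the 1 gene lower by that size (3.63 RPKM in S473D, 6.48 in S473A, 6.28 in wt; -0.65). DDB2 stood at 15.8 RPKM in S473D, 11.5 in S473A and 10.1 in wt, so these partners in repair stood on opposite sides of wt.
In S473A minus wt the extremes were small. PLK3 (0.13) and BTG1 (-0.04) bounded the arrest targets, BID (0.15) and BNIP3L (-0.09) the death targets, and DDB2 (0.17) and DRAM1 (-0.15) those of repair and metabolism, once genes averaging under 5 RPKM were set aside.

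The comparison of S473D with S473A shares the S473D library with the one above. Of the 50 wider targets, 7 were at least 1.5-fold apart, where 9.86% of all tested genes were, and 2 with length and GC trends removed, against 5.11%. The extremes were PCNA (0.93) and GTSE1 (-0.51) for arrest, SIVA1 (0.76) and TNFRSF10B (-0.36) for death, and RPS27L (0.89) and XPC (-0.69) for repair and metabolism. Of the p53 regulators, RPL11 (0.88) and CREBBP (-0.60), an acetyltransferase gene, were the extremes.

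The differences of the wider targets in S473D ran with transcript length. Of 29 targets shorter than 3217.5 bases, the median of tested genes with a known length, 20 were above wt and 9 below (median 0.09), while of 21 longer ones 5 were above and 16 below (median -0.14). Of the 11300 tested genes with a transcript length, 3147 of 5650 shorter ones were above wt (median 0.06) and 1280 of 5650 longer ones (median -0.21). The difference between the targets and all genes was not tested. Spearman's rho with length was -0.52 across the 50 targets and -0.07 across the 8 members, in which BAX and BBC3 are short and below wt. These values come from the same pair of libraries and the part of length in them was not tested. With the trends removed, XPC had a difference of -0.48, while TRIAP1 was at 0.11 and SIVA1 at 0.28.

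**Figure D4:**
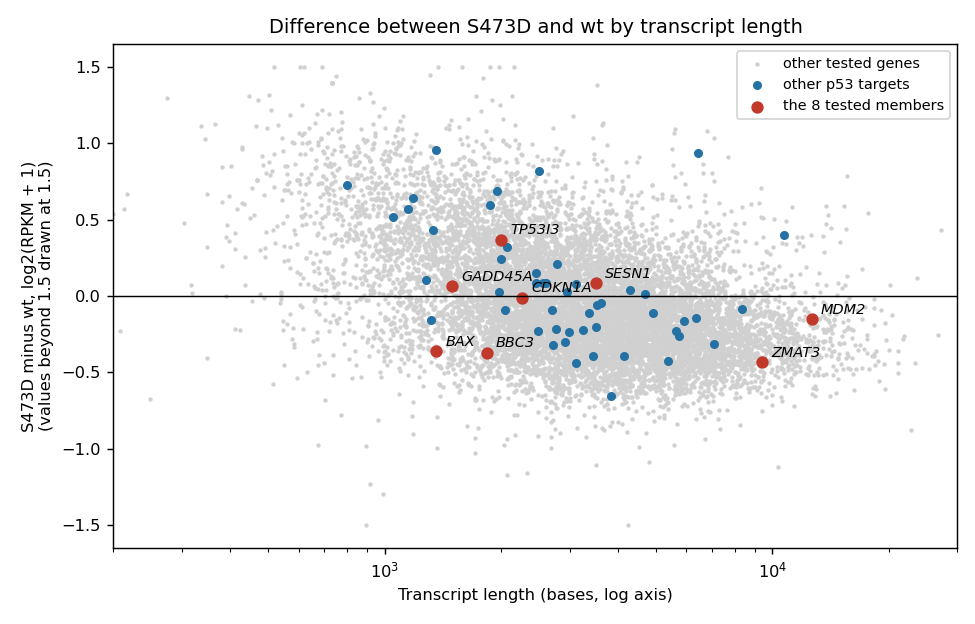
Difference between S473D and wt on log2(RPKM + 1) against transcript length in bases on a log axis, for all tested genes (grey), 50 other p53 targets (blue) and the 8 tested members (red, named). Shorter genes tend to lie above longer ones, but BAX and BBC3 lie below 0 at short lengths.

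Regulators of the p53 protein were also followed. Of 34 listed, 30 were tested, 8 above 0 and 22 below in S473D minus wt, where 39.3% of all tested genes were above 0 and 60.7% below, and their median was -0.26 beside -0.10. The regulators are mostly long, with a median transcript of 4390 bases, and of the 5650 genes longer than the median 4370 were below 0. KAT5, an acetyltransferase of p53 (12.4 RPKM in S473D, 18.0 in S473A, 19.5 in wt; -0.61), and the methyltransferase SETD8 (-0.59) were at least 1.5-fold lower in S473D than in wt, as were 3.23% of all tested genes. RPL11 (0.83) and RPL5 (0.81), ribosomal proteins that bind and inhibit MDM2, were at least 1.5-fold higher, as were 6.83% of genes. Their reads can be shared with processed pseudogenes. Ribosomal protein genes as a class held 18.8% of summed RPKM in S473D, against 12.9% in wt, so the rise was not particular to these regulators. With differences centred 2 of these 4 genes passed, and KAT5 (-0.51) and SETD8 (-0.49) did not, where 9.55% of all genes were higher and 1.11% lower by that size. With length and GC trends removed 1 passed, KAT5 (-0.59), where 3.34% of genes were lower by that size. SETD8 was then at -0.49, RPL11 at 0.33 and RPL5 at 0.23. The median of the regulators was -0.10 once those trends were removed, the same as for all tested genes, and the regulators ran with length (rho -0.62 across 30 genes). The part of length in their median was not tested. In S473A minus wt their median was -0.01, and those averaging 5 RPKM or more lay between MAGEA2 (-0.17, one of a family of near-identical copies) and TP53BP2 (0.12).

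The 20 genes listed as lowered by p53 through p21 and the DREAM complex, most of them mitotic, had a median of 0.01 in S473D minus wt and 0.00 in S473A minus wt, and split 10 above and 10 below in both. Of all tested genes, 39.3% were above 0 and 60.7% below in S473D minus wt, and 49.8% and 50.2% in S473A minus wt. In S473D CDK1, the mitotic kinase gene, was highest (134 RPKM in S473D, 71.9 in S473A, 71.4 in wt; 0.90), and FOXM1, a mitotic transcription factor gene, lowest (36.4, 58.8 and 58.1 RPKM; -0.66). With length and GC trends removed they were at 0.39 and -0.50. In S473A minus wt MYBL2 (0.07) was highest and PRC1 (-0.05) lowest. CDKN1A itself, through which they are lowered, had a ratio to wt of 0.993. With the trends removed the median of this list in S473D minus wt was -0.22, beside -0.10 for all genes under that setting. It was 0.11 with differences centred and 0.12 with trimmed mean scaling, so only the removal of trends made it negative.

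**Figure D5:**
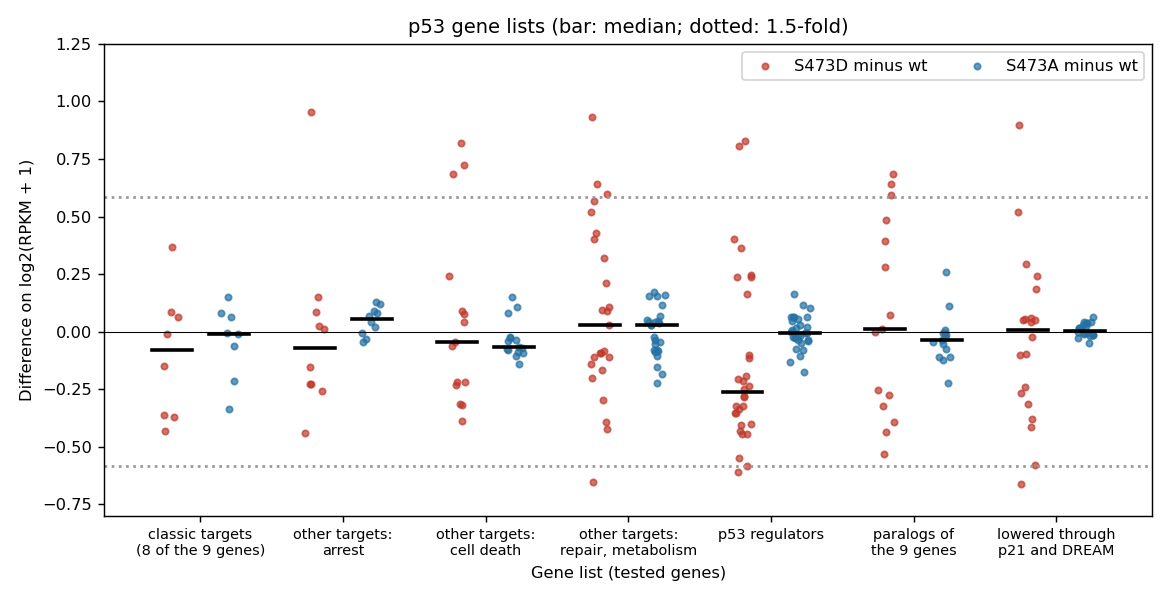
Difference on log2(RPKM + 1) for each tested gene of 7 lists, S473D minus wt (red, left) and S473A minus wt (blue, right); bars are medians and dotted lines mark 1.5-fold. Genes spread widely in S473D and narrowly in S473A, and the p53 regulators have the lowest median in S473D (-0.26), which is -0.10 with length and GC trends removed, above the -0.22 of the genes lowered by p53.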

How the data were processed

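RNA of 3 libraries, 1 per KAP1 form, was placed in groups by sample title. Reads were handled with Bowtie and Partek against hg19, per the submitters' processing notes; the sources used here give no version, annotation, strand use or counting rule. The authors deposited log2 values of RPKM; their lowest value, -3.32, is the log2 of 0.1, so 0.1 was taken as added before the log, and RPKM was recovered by undoing both. Of 19076 lines, 27 with symbols turned into dates or repeated were left out. Genes were tested where their mean over the 3 libraries reached 1 RPKM, without 177 short RNAs.

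The value of 1 read was estimated from the commonest ratio of low values between libraries and from RPKM times transcript length (GENCODE release 29, the longest transcript with a RefSeq record; 11300 of 11571 genes matched). At the chosen depth 46.7% of low values came out whole within 2%, against 7.41% at a typical depth. The depths are therefore approximate, and counts were not modelled. The gene models behind the deposited RPKM are not given, so estimated reads and intervals also depend on the transcript length assigned to each gene. MDM2, assigned 12633 bases, has an interval in S473A over wt (0.914 to 0.997) that only just leaves out 1. Intervals are exact binomial (conditional on both counts) or Poisson and cover counting error only. Trends on length and GC content were removed by lowess (fraction 0.2, 2 rounds), keeping the overall median.

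All members were named. Of each other list the rule named the genes with the highest and lowest difference among those with a mean of at least 5 RPKM, and any that were 2-fold apart; other genes past 1.5-fold, and MDM4, SESN2 and the further paralogs, were named after their values were seen. The members, lists and alternatives were chosen with earlier results of these data known. Python 3.11.15, SciPy 1.17.1 and statsmodels 0.14.6 were used. The depth estimate, differences, ratio intervals and trend removal were tried on simulated data. That simulation used the same transcript lengths as the estimate, so it does not cover wrongly assigned lengths. The promoter search was not simulated.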

Additional observations from a re-analysis of the deposited data

How the results depend on the processing

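The alternatives were pseudocounts of 0.1 and 0.5, no filter on level, a mean of 5 RPKM as the filter, centring on the overall median, trimmed mean scaling (30% of ratios and 5% of levels per end) and length and GC trends removed. The counts of members 2-fold apart, and of those 1.5-fold apart from wt, were 0 under each. At 1.5-fold, between 5.07% and 15.0% of all genes passed in S473D minus wt under these alternatives, and between 0.204% and 0.570% in S473A minus wt. BTG2 entered the member counts only without the filter, where 1 was added and its S473D difference from wt was -0.52. The counts therefore do not cover its RPKM ratio of 0.1999 between S473D and wt. Between S473D and S473A the count at 1.5-fold was 1 with either pseudocount, centring, scaling or trends removed, where TP53I3 passed under the first 4 and BAX (-0.72) with trends removed. In that order 14.9%, 12.1%, 10.9%, 11.1% and 5.11% of all genes passed. In S473D minus S473A, CDKN1A and MDM2, both at -0.09 on log2(RPKM + 1), were at 0.012 with centring and at 0.018 and 0.013 with scaling, and MDM2 was at 0.00055 with trends removed. The median of all genes in S473D minus wt was -0.01 after scaling, against -0.10 before. The members' median in that comparison, -0.08 on log2(RPKM + 1), was 0.02 with either centring or scaling. In that comparison the members' own differences kept their sign except for CDKN1A, at 0.09 with centring, 0.10 with scaling and 0.0044 with trends removed, and GADD45A, at -0.17 with trends removed. Depth limits BTG2 and BBC3 most. No paired analysis was possible because each form has 1 library, and for the same reason no library could be left out.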

Other observations

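Some paralogs of the 9 genes, counted loosely to include wider relatives such as PMAIP1, stood well above wt in S473D. PMAIP1 is also among the death targets above, so it is not a separate observation here. Of 18 measured, 15 were tested, and 3 were at least 1.5-fold higher than in wt, PMAIP1, GADD45B and BTG3, where 6.83% of all tested genes were. GADD45B, a stress-induced relative of GADD45A, stood at 40.6 RPKM in S473D, 24.8 in S473A and 25.7 in wt, a log2 difference from wt of 0.64 that was 0.42 with length and GC trends removed. BTG3, a relative of BTG2, stood at 21.4 RPKM in S473D, 12.6 in S473A and 13.8 in wt (0.59, or 0.17 with trends removed). TOB2, of the same antiproliferative family, was the lowest of those with a mean of at least 5 RPKM (6.78 RPKM in S473D, 9.58 in S473A, 9.53 in wt; -0.44). PMAIP1 was at 0.68, or 0.24 with trends removed, and none of the 15 was then 1.5-fold apart, against 5.07% of genes. The median of the 15 was 0.01 and their differences ran with transcript length (rho -0.83 across genes). In S473A minus wt the paralogs with a mean of at least 5 RPKM stayed between BTG3 (-0.12) and TOB1 (0.11).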
